A study of Mus musculus with 6 samples.

Results

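Transcripts of 10 genes were compared between young and aged mouse liver endothelial cells (ECs). The genes encode the subunits of the transcription factor NF-κB and proteins that restrain it or modify its action. The 5 subunit genes were Nfkb1, Nfkb2, Rel, Rela and Relb. The 5 feedback inhibitor genes were Nfkbia, Nfkbie, Nfkbiz, Tnfaip3 and Bcl3. Nfkbiz and Bcl3 are grouped here although their nuclear proteins do not only restrain NF-κB, as described below. They were chosen by symbol, with earlier results of these data known, and all 10 were found among the 24421 genes of the count table and passed the filter on low counts that 14612 genes passed. Sorted CD31+CD45- cells came from the livers of wild-type C57BL/6J mice, which per the study's methods were female. The young group was 3 samples of 10-week-old mice and the aged group was 1 sample each at 127, 131 and 136 weeks. No treatment, transgene or altered allele was present in either group, and the labels do not say whether a sample was 1 animal or a pool, so any test below measures only the spread between these samples, which may be partly technical.

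NF-κB is a dimer of Rel-family proteins. RelA, c-Rel and RelB carry a transactivation domain, whereas p50 and p52 are cut from longer precursors made by Nfkb1 and Nfkb2. In resting cells the dimers are held in the cytoplasm by IκB proteins, and TNF, IL-1 or bacterial products activate a kinase complex that marks IκB for destruction and lets the dimers reach the nucleus. Several of the genes they switch on, Nfkbia and Tnfaip3 among them, shut the pathway down again, so their transcripts are widely used as a readout of recent NF-κB activity. In ECs the pathway is best known for inducing the adhesion molecules that capture leukocytes from blood.

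Because several of these genes are themselves NF-κB targets, their promoters were searched for its binding sequence. A RefSeq promoter table held entries for 7 of the 10 genes, each running from 250 bases before to 50 bases after a start site, and held none for Nfkb1, Relb and Nfkbiz. The κB consensus, the sequence class that NF-κB dimers bind, was searched on both strands. Of the 7 genes, 6 had at least 1 match, and Rela had none, while 9.55% of the 27025 genes in the table had one. By entry, 8 of the 10 promoters of these genes held a match, against 8.46% of all 32851. A match is a description of the letters and not evidence of binding in these cells. The copies near the first-listed start site are given here with 10 bases on either side, 5′ to 3′ on the strand of the gene, with the matching bases in capitals. They are printed because the genes with the largest age differences, Tnfaip3 and Bcl3, are among those that hold one. Nfkb2 and Nfkbie hold matches too, with fitted log2 fold changes between ages of only 0.03 and 0.18. Rela, without a match, had 0.32, and Nfkbiz, without an entry, had 1.13. Whether a match goes with an age difference was not tested.

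Nfkbia: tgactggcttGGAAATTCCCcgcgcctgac

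Tnfaip3, distal: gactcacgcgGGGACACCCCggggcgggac

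Tnfaip3, proximal: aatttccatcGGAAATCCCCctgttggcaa

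Bcl3: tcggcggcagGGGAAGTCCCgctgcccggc

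Nfkbie: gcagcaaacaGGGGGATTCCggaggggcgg

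Rel: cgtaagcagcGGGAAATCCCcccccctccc

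Nfkb2, distal: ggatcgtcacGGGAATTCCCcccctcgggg

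Nfkb2, proximal: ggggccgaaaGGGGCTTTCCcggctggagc

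The promoter sequences were placed by exact match on mm9, the genome build to which the reads were mapped. The Nfkbia window was at chr12:56593644-56593673 on the minus strand, outside any annotated exon, and its match began 29 bases before the start site. The Tnfaip3 windows were at chr10:18735322-18735351 and chr10:18735209-18735238 on the minus strand. The distal copy began 125 bases before the RefSeq start and lay in no exon, and the proximal copy began 12 bases before it, in a window that reached an annotated Tnfaip3 exon. That start, at 18735216, is downstream of the annotated 5′ end of the gene at 18735463, so both windows lay inside the annotated gene. In the Nfkbia and proximal Tnfaip3 windows the match was read on the strand opposite the gene. The Bcl3 window, chr7:20408083-20408112 on the minus strand, overlapped an annotated Bcl3 exon, with the match starting at base 3 after the RefSeq start site. It lay inside the annotated gene, whose 5′ end is at 20408119. The Rel window was at chr11:23671042-23671071 on the minus strand, with its match 92 bases before the start. The Nfkbie window was at chr17:45692533-45692562 on the plus strand, with its match 106 bases before the start. The Nfkb2 windows were at chr19:46379178-46379207 and chr19:46379206-46379235 on the plus strand, with matches that began 39 and 11 bases before the start.

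Library totals ran from 23001556 to 31651817 counts. Pecam1, which encodes the sorted antigen CD31, was between 1366 and 1635 CPM in all 6 libraries, where CPM is a count scaled to library size with trimmed mean of M-values (TMM) factors. Leukocyte transcripts were most abundant in the 136-week sample, with values given beside the results they touch. The share of Lars2 and Rn45s, a pair of genes to which ribosomal reads can map, set young 3 and the 127-week sample (1.29% and 0.960% of counts) apart from the other 4 (4.68% to 5.53%).

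The highest transcript levels among the 10 genes were those of the inhibitor genes Nfkbia and Nfkbiz. The other inhibitor genes had lower means than Rela and Relb in young ECs. On the FPKM scale, which accounts for gene length, Nfkbia was the most abundant of the 10 transcripts at both ages, at 942 ± 108 in young ECs and 1651 ± 539 in aged ECs (mean ± SD, n = 3 per age). It encodes IκBα, the inhibitor that is destroyed and rapidly remade with each round of activation. Nfkbiz was next at 165 ± 34.5 in young and 361 ± 112 in aged ECs. In young ECs the order continued with Rela at 65.0 ± 4.13 and Relb at 28.1 ± 6.53. Below Relb, Nfkb1, Nfkb2, Bcl3, Tnfaip3 and Nfkbie had young means between 16.2 and 21.5 FPKM, and each overlapped its neighbour in the order. Rel was the least abundant at 4.54 ± 0.843 FPKM. In aged ECs the main difference in this order was Tnfaip3, which had rank 8 in young ECs and rank 3 in aged ECs, at 92.7 ± 61.8 FPKM, where it overlapped Rela at 80.5 ± 21.9. Rel stayed last at 10.3 ± 4.79 FPKM, overlapping Nfkbie.

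**Figure D1:**
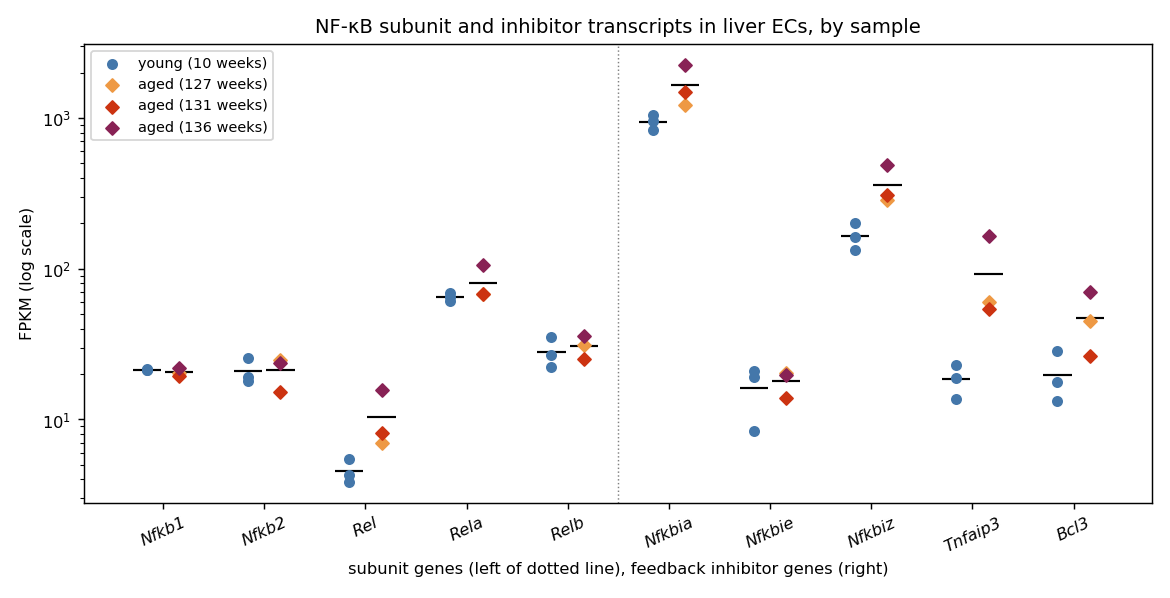
FPKM (log axis) of the 10 genes in each of the 6 samples; circles are young samples, diamonds the aged samples at 127, 131 and 136 weeks, and horizontal bars the group means. Nfkbia lies far above the rest at both ages, and the aged diamonds of Tnfaip3, Nfkbiz, Nfkbia and Rel all lie above the young circles.

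The comparison of ages asked whether aged liver ECs carry more of these transcripts. For Tnfaip3, Nfkbiz, Nfkbia and Rel every aged sample was above every young one, and Bcl3 was higher on average with overlap. The other 5 genes overlapped between ages, with fitted log2 fold changes from -0.04 to 0.32. By edgeR's quasi-likelihood test with Benjamini-Hochberg adjustment over all genes tested, 0 of the 10 passed an adjusted p of 0.05, and 0% of all genes did. At an unadjusted p under 0.05, 5 of the 10 were higher in aged ECs against a background of 8.32% of all genes, and 0 were lower against 4.32%. The 4 genes whose aged values lay wholly above the young ones compare with 9.62% of all genes, and the 0 that lay wholly below with 8.33%, or 17.9% in either direction. DESeq2, run as an alternative, called 4 of the 10 higher (Tnfaip3, Nfkbiz, Rel and Bcl3) against 3.37% of all genes with an adjusted value, and 0 lower against 1.05%, or 4.42% in either direction. The median log2 fold change was 0.57 over the 10 genes, 0.14 over the subunits and 1.13 over the inhibitors, beside 0.0098 over all genes tested. The inhibitor median is the value of Nfkbiz.

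Tnfaip3 encodes A20, a ubiquitin-editing enzyme that switches off signalling from TNF and Toll-like receptors. The gene is at chr10:18720716-18735463 on the minus strand of mm9. It measured 59.9, 83.0 and 99.9 CPM in young 1, 2 and 3. In aged ECs it measured 262.7 CPM at 127 weeks, 237.3 at 131 weeks and 721.4 at 136 weeks. The lowest aged value was more than double the highest young value, a gap of 1.25 on the log2 scale, and the 136-week sample stood well above the other aged samples. The aged samples were 3.25-fold, 2.93-fold and 8.91-fold the young mean. The fitted log2 fold change was 2.33 (SE 0.46, edgeR adjusted p = 0.194), the largest of the 10. DESeq2 gave an adjusted p of 3.3e-05, so the call depended on the tool.

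Nfkbiz encodes IκBζ, a nuclear IκB relative that is itself induced by NF-κB and alters which target genes the dimers activate. The gene spans chr16:55811488-55839012 on the minus strand. Its levels were 477, 579 and 712 CPM in young 1, 2 and 3. At 127, 131 and 136 weeks they were 1009, 1103 and 1746 CPM. The groups did not overlap, and the samples at 127 and 131 weeks were close to each other at 1.71-fold and 1.87-fold the young mean. The log2 fold change was 1.13 (SE 0.27), with an adjusted p of 0.235 by edgeR and 0.00467 by DESeq2.

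Nfkbia spans chr12:56590398-56593634 on the minus strand. It measured 1090.0, 1246 and 1306 CPM in the young samples. The aged values were 1534, 1937 and 2951 CPM at 127, 131 and 136 weeks. The ages were separate, but the 127-week sample was only 1.26-fold the young mean. The log2 fold change of 0.82 (SE 0.27) had an adjusted p of 0.314 by edgeR and 0.0627 by DESeq2, so neither tool called it.

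Bcl3 encodes a nuclear IκB family protein that works with p50 and p52 dimers and can repress or activate their targets. The gene lies at chr7:20393811-20408119 on the minus strand, and in the mm9 annotation its exons share at most 106 bases with Gm16175. Because the counting strand is not given in the sources used here, reads from those bases cannot be assigned to either gene. Bcl3 measured 30.9, 48.9 and 24.1 CPM in young 1, 2 and 3. The aged samples had 82.2 CPM at 127 weeks, 46.8 at 131 weeks and 121.2 at 136 weeks. The 131-week value fell within the young range, just below young 2, which makes Bcl3 the one gene with a log2 fold change above 1 whose ages overlapped. That fold change was 1.27 (SE 0.39), with an adjusted p of 0.291 by edgeR and 0.0423 by DESeq2.

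Nfkbie encodes IκBε, a slower acting IκB. It lies at chr17:45692665-45700118 on the plus strand. It measured 45.0, 49.0 and 19.3 CPM in young 1, 2 and 3. The aged values were 48.2, 33.4 and 46.5 CPM, all inside the young range. Its log2 fold change was 0.18 (SE 0.34, edgeR adjusted p = 0.893), with a 95% interval from -0.63 to 0.98. Young 3 was far below the other young samples, and most of the spread came from it.

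Among the subunits, Rel was the one whose ages did not overlap. It encodes c-Rel, a subunit most studied in lymphocytes, and spans chr11:23641514-23670970 on the minus strand. It measured 11.5, 9.88 and 14.3 CPM in the young samples. In the aged samples it measured 18.6, 20.7 and 40.3 CPM at 127, 131 and 136 weeks. The aged samples were 1.56-fold, 1.74-fold and 3.38-fold the young mean. The log2 fold change was 1.15 (SE 0.33), with an adjusted p of 0.263 by edgeR and 0.0385 by DESeq2. Even so, c-Rel transcripts remained a small part of the subunit pool, at 2.48% to 4.28% of summed subunit FPKM in young and 4.63% to 7.79% in aged samples.

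Rela encodes the main transactivating subunit, at chr19:5637483-5648130 on the plus strand. It measured 168.3, 181.1 and 157.6 CPM in young ECs and 177.4, 178.7 and 278.1 CPM at 127, 131 and 136 weeks. The 127- and 131-week values lay within the young range, and only the 136-week value lay above it. The log2 fold change was 0.32 (SE 0.21, edgeR adjusted p = 0.580), and was 0.08 without the 136-week sample.

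Nfkb1, at chr3:135247619-135354511 on the minus strand, was the steadiest of the 10. Its 6 values ran from 79.5 to 90.6 CPM, a 1.14-fold range, and the log2 fold change was -0.04 with a 95% interval from -0.33 to 0.24. Nfkb2, at chr19:46379227-46386580 on the plus strand, ran from 58.7 to 77.2 CPM in young and from 47.4 to 79.5 CPM in aged ECs. It shares at most 4 annotated exon bases with Psd. Its log2 fold change was 0.03, with an interval from -0.49 to 0.55. Relb, at chr7:20191566-20214787 on the minus strand, ran from 46.3 to 72.8 CPM in young and from 52.4 to 75.2 CPM in aged ECs. The log2 fold change of Relb was 0.14, with an interval from -0.36 to 0.64. Nfkb2 and Relb serve the non-canonical branch, which is driven by lymphotoxin and BAFF receptors. For these 3 genes the whole interval lay within 1 log2 unit of 0, which leaves room for smaller differences.

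**Figure D2:**
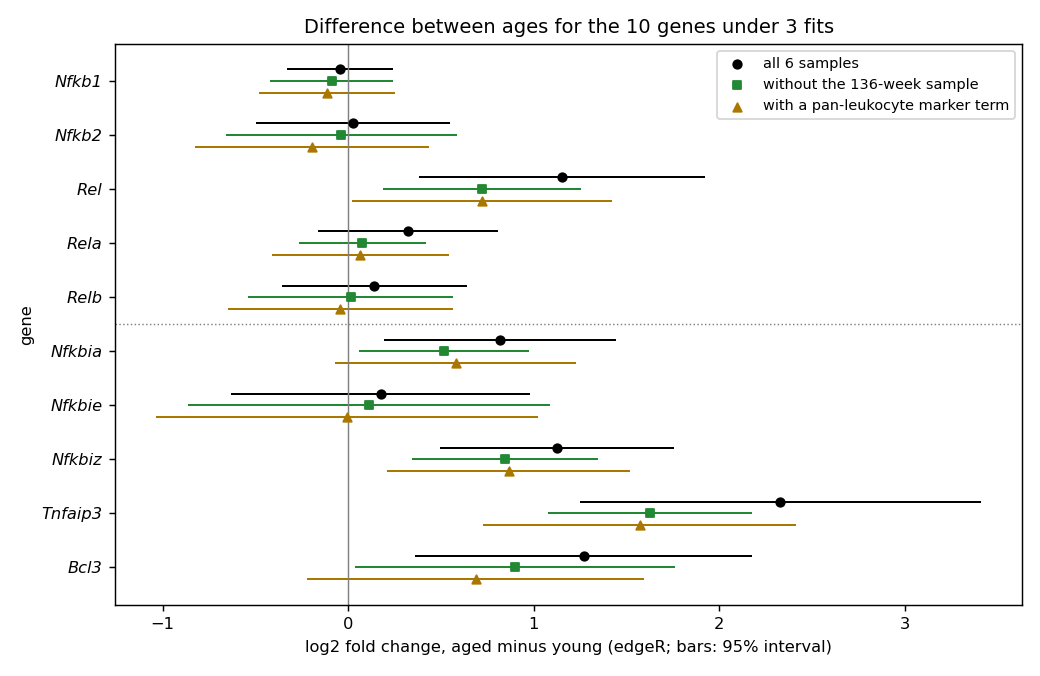
Fitted log2 fold change, aged minus young, of the 10 genes from edgeR, with 95% intervals that are not adjusted for the number of genes; circles use all 6 samples, squares leave out the 136-week sample and triangles add the mean log2 CPM of 10 pan-leukocyte markers as a term. The intervals of Tnfaip3, Nfkbiz and Rel stay on the right of 0 in all 3 fits, while those of Nfkb1, Nfkb2, Rela, Relb and Nfkbie straddle it. Those of Nfkbia and Bcl3 include 0 only with the pan-leukocyte term.

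Because the inhibitors and subunits were read in the same library, their ratio does not depend on library size. Summed inhibitor FPKM was 7.44, 7.59 and 10.1 times summed subunit FPKM in young 1, 2 and 3. The ratio was 10.8, 13.9 and 14.8 at 127, 131 and 136 weeks. The ages did not overlap, although young 3 and the 127-week sample were near each other. Nfkbia made up 80.5% to 81.9% of the inhibitor sum in young and 74.8% to 78.6% in aged samples, so the size of the ratio rests mostly on that gene. The other inhibitors held a larger share in every aged sample, so the age difference in the ratio is not that of Nfkbia alone.

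The 136-week sample was the highest of all 6 for 8 of the 10 genes, beside 3759 of all 14612 genes tested. It was also the sample with the most leukocyte transcripts. Ptprc, which encodes CD45 and should be absent from the sort, measured 1.17 to 1.70 CPM in young ECs, 7.56 CPM at 127 weeks, 1.28 CPM at 131 weeks and 25.6 CPM at 136 weeks. The summed level of 10 pan-leukocyte markers was 102.0 to 107.5 CPM in young ECs, and 120.0, 101.3 and 370.5 CPM at 127, 131 and 136 weeks. Lcp1 alone held 79.3 to 86.9 CPM of the young sums, and without it, a choice made after seeing the values, the other 9 summed to 16.7 to 28.2 CPM in young ECs and 60.4, 17.6 and 214.3 CPM in the aged samples. Myeloid markers (10 genes) summed to 48.1 to 94.5 CPM in young ECs, and 203.4, 33.0 and 499.7 CPM in the aged samples in that order. T and NK cell markers (9 genes) summed to 0.978 to 2.53 CPM in young ECs, and 7.08, 1.21 and 32.6 CPM in the aged samples. B cell markers (5 genes, with Pax5 not tested) summed to 0.946 to 1.23 CPM in young ECs and 1.51, 0.739 and 8.49 CPM in aged ones. By edgeR 0 of the pan-leukocyte markers were called, as was 0% of all genes. Of the 10, 1 (Coro1a) was higher in every aged sample, beside 9.62% of all genes.

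The 131-week sample had myeloid and B cell sums below the lowest young value, a T and NK cell sum within the young range, and a pan-leukocyte sum just below that range with Lcp1 and within it without. Its neutrophil marker sum, 6.26 CPM, was above the young range of 1.64 to 5.92 CPM. In that sample Tnfaip3 was 2.93-fold, Nfkbiz 1.87-fold, Rel 1.74-fold and Nfkbia 1.60-fold the young mean. That these 4 genes were above all 3 young samples there follows from their ages not overlapping. Over all 14612 genes tested, 3801 had the 131-week sample above all young samples. Bcl3 was 1.35-fold the young mean there and within the young range. Fitted alone against the young samples, which supply the only spread in that fit, the 131-week sample gave log2 fold changes of 1.55 for Tnfaip3, 0.91 for Nfkbiz, 0.80 for Rel and 0.68 for Nfkbia, all with edgeR adjusted p values of 0.532 or more. Without the 136-week sample the log2 fold changes were 1.63 for Tnfaip3, 0.84 for Nfkbiz, 0.72 for Rel, 0.52 for Nfkbia and 0.90 for Bcl3. With the pan-leukocyte term they were 1.57, 0.87, 0.72, 0.58 and 0.69 for the same genes. In that fit the 95% intervals of Nfkbia (-0.07 to 1.23) and Bcl3 (-0.22 to 1.59) included 0. The part of leukocyte transcripts in the age differences was not tested.

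Markers of other cell types differed between samples as well. Neutrophil markers summed to 1.64 to 5.92 CPM in young ECs and 5.23, 6.26 and 30.0 CPM at 127, 131 and 136 weeks, over 4 measured genes. Hepatocyte markers (8 genes) summed to 255.2 to 349.8 CPM in young and 284.6, 181.1 and 311.5 CPM in aged samples. Of these, 3 of the 8 were lower in every aged sample, beside 8.33% of all genes. Cholangiocyte markers (5 genes) summed to 88.1 to 104.6 CPM in young and 189.9, 189.2 and 236.8 CPM in aged samples. Sinusoidal EC markers (8 genes) summed to 15490 to 17120 CPM in young ECs and 6413, 10810 and 6024 CPM in aged ones. Of these, 6 of the 8 were lower in every aged sample, beside the same 8.33%. Stab2, a scavenger receptor of sinusoidal ECs, measured 2901 to 3198 CPM in young ECs and 503.6, 1759 and 542.2 CPM at 127, 131 and 136 weeks. Cdh5, which encodes VE-cadherin, ranged from 351.0 to 468.8 CPM in young and 240.8 to 461.4 CPM in aged ECs. In bulk samples like these, fewer cells of a type and less RNA per cell cannot be told apart, and the part of these shifts in the NF-κB gene differences was not tested.

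**Figure D3:**
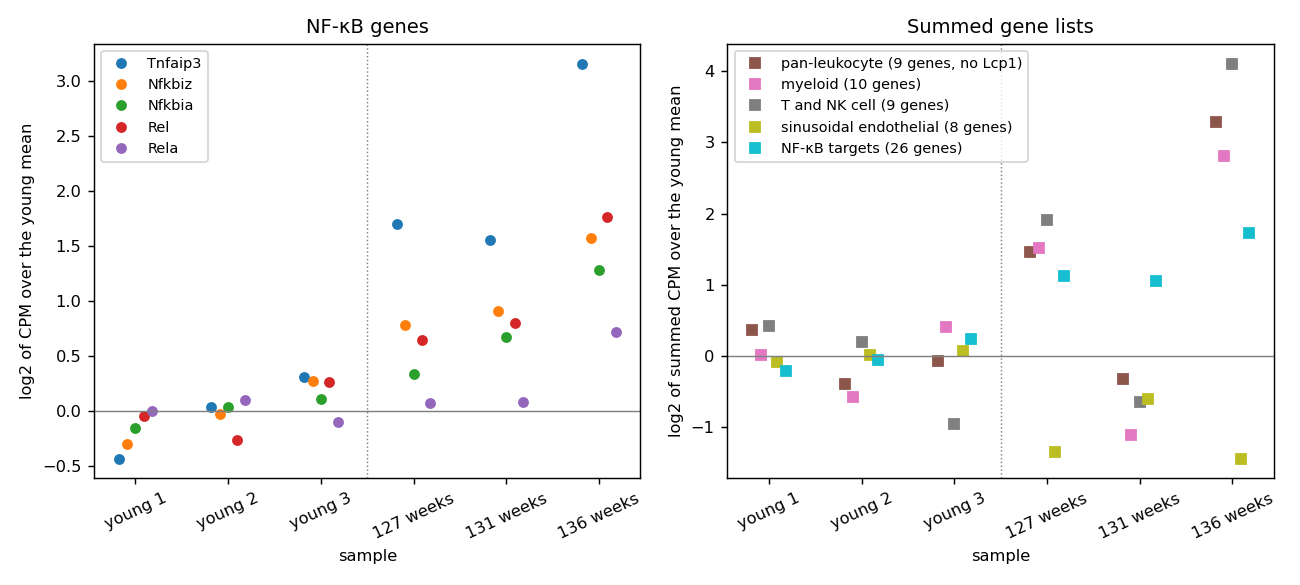
Left, log2 of CPM over the young mean for Tnfaip3, Nfkbiz, Nfkbia, Rel and Rela in each sample; right, the same for summed CPM of 9 pan-leukocyte markers (without Lcp1), of myeloid, T and NK cell and sinusoidal EC markers and of NF-κB target genes. At 131 weeks the leukocyte sums shown are below their young means, and Tnfaip3 is 2.93-fold and Nfkbiz 1.87-fold its young mean. The neutrophil sum, not shown, was 6.26 CPM at 131 weeks and 1.64 to 5.92 CPM in young ECs.

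Dividing the samples by their Lars2 and Rn45s share left 1 young and 1 aged sample in the low group. Within it, the difference in log2 CPM between the 127-week sample and young 3 was 1.39 for Tnfaip3, 0.50 for Nfkbiz, 0.36 for Rel and 0.23 for Nfkbia. Within the other 4 samples the difference of means was 2.54, 1.40, 1.36 and 1.04 for the same genes. The sign for these 4 could not differ between the sides, because their aged values all lay above their young values. Only the sizes carry information, and the first difference has no replicate. Nfkbie, Relb and Nfkb2 differed in sign, at 1.28, 0.48 and 0.43 in the low group and -0.25, -0.02 and -0.21 in the other.

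Upstream of the 10 genes, the lists of receptors, ligands, adaptors and kinases differed in their medians, which were 0.21, 1.67, 0.05 and 0.13 on the log2 scale. Of 9 receptors, 1 was higher in every aged sample and 2 were lower, beside 9.62% and 8.33% of all genes, and 0 were called by edgeR. Tnfrsf1b, which encodes TNF receptor 2, measured 17.2 to 25.9 CPM in young ECs and 66.0, 44.3 and 91.0 CPM at 127, 131 and 136 weeks. Its log2 fold change was 1.59 (SE 0.29), with an adjusted p of 0.194 by edgeR and 0.00016 by DESeq2. Tnfrsf1a, the main TNF receptor of ECs, overlapped between ages with a log2 fold change of -0.17. Tlr4 and Ltbr, the receptors for endotoxin and lymphotoxin, were the 2 that were lower in every aged sample, with log2 fold changes of -0.56 and -0.52. They are named because so few receptors moved, after their values were seen.

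Of 9 ligands, 5 passed the filter on low counts and 1 of these had aged values wholly above the young ones, beside 9.62% of all genes. Their median log2 fold change of 1.67 is that of Ltb, a gene of 0.126 to 2.52 CPM, and it was 1.01 without the 136-week sample. Tnfsf13b, which encodes BAFF, measured 0.112 to 0.226 CPM in young ECs and 3.06, 1.32 and 1.83 CPM in aged ECs, a log2 fold change of 3.63 (SE 0.61, edgeR adjusted p = 0.184). The young values were close to the 3-count floor of 0.0948 to 0.130 CPM, so the size of that fold change is uncertain. Il1b, which encodes the inflammatory cytokine IL-1β, measured 3.02 to 6.21 CPM in young ECs and 19.7, 2.29 and 40.2 CPM at 127, 131 and 136 weeks. The fitted difference was 2.201 on the log2 scale (SE 0.86, edgeR adjusted p = 0.368), and it was -0.05 with the pan-leukocyte term. Tnf measured 5.28 to 10.9 CPM in young and 6.53, 19.2 and 18.5 CPM in aged ECs, a log2 fold change of 0.93 (SE 0.45, edgeR adjusted p = 0.456). Il1a, the most abundant ligand transcript, went the other way, with 261.9 to 280.7 CPM in young ECs. At 127, 131 and 136 weeks it measured 113.3, 300.7 and 192.5 CPM, a log2 fold change of -0.42 (SE 0.32, edgeR adjusted p = 0.652). Summed FPKM of the 9 ligands was 174.3 to 190.0 in young and 97.9, 205.6 and 173.4 in aged samples. Ltb, Il1b, Tnf and Il1a are named after their values were seen. Of 13 adaptors, Tradd was lower in every aged sample, with a log2 fold change of -0.38, beside 8.33% of all genes wholly below. None of the 13 had a log2 fold change beyond 1 in either direction, and their median was 0.05. Of 11 kinases, 2 (Map3k8 and Tab3) were higher in every aged sample, beside 9.62% of all genes, with Tab3 at a log2 fold change of 0.63. Map3k8, which encodes the kinase TPL2 that is held inactive by the p105 product of Nfkb1, measured 75.3 to 151.4 CPM in young and 201.9, 223.4 and 255.0 CPM in aged ECs. Its log2 fold change was 1.08 (SE 0.27), with an adjusted p of 0.237 by edgeR and 0.0106 by DESeq2. The kinase that marks IκB for degradation, encoded by Chuk, Ikbkb and Ikbkg, overlapped between ages for each of its 3 genes, with log2 fold changes of 0.19, 0.12 and -0.13.

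Of 20 other regulators, 3 were higher in every aged sample and 0 were lower, beside 9.62% and 8.33% of all genes. Zc3h12a, which encodes the endonuclease Regnase-1 that degrades inflammatory mRNAs, measured 8.26 to 9.16 CPM in young ECs. At 127, 131 and 136 weeks it measured 12.9, 19.0 and 43.6 CPM. The log2 fold change was 1.54 (SE 0.43), or 0.88 without the 136-week sample, with an adjusted p of 0.256 by edgeR and 0.0208 by DESeq2. Tnip3, a partner of A20, was above the young samples too, but its 6 values were between 0 and 0.650 CPM and its fold change of 2.37 on the log2 scale has an SE of 1.33. Nfkbid, which encodes the nuclear inhibitor IκBNS, was the other, with 46.0 to 59.3 CPM in young and 67.7 to 136.9 CPM in aged ECs and a log2 fold change of 0.94. Tradd, Tab3 and Nfkbid are likewise named after their values were seen.

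Of 26 listed target genes of NF-κB, 24 passed the filter, and Ccl20 and Csf2 did not. In 19 of the 24 every aged sample was above every young sample, beside 9.62% of all genes, and in 0 was it below, beside 8.33%. Of the 24, 20 had the 131-week sample above all young samples, beside 3801 of all 14612 genes tested. edgeR called 0 of them, 19 were higher at an unadjusted p under 0.05 (8.32% of all genes), and DESeq2 called 16 higher (3.37%). The median log2 fold change was 1.61, and it was 1.31 without the 136-week sample and 1.04 with the pan-leukocyte term. The list was drawn up with earlier results of these data known, so its counts are a description.

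The targets include the adhesion molecules of ECs. Vcam1, the endothelial ligand of the integrin VLA-4, measured 840.4, 950.9 and 875.3 CPM in young 1, 2 and 3, and 1630.0, 1917 and 2632 CPM at 127, 131 and 136 weeks. Its log2 fold change was 1.21 (SE 0.22, edgeR adjusted p = 0.194). Icam1, the ligand of LFA-1, measured 425.3, 608.9 and 691.1 CPM in young and 1518, 1266 and 2309 CPM in aged ECs, a log2 fold change of 1.56 (SE 0.29, edgeR adjusted p = 0.194). Sele, which encodes E-selectin and is largely restricted to ECs, measured 40.8, 47.8 and 84.4 CPM in young ECs. In aged ECs it measured 333.4, 269.9 and 439.0 CPM, a log2 fold change of 2.59 (SE 0.33, edgeR adjusted p = 0.137). Selp, which encodes P-selectin, measured 284.6, 315.5 and 335.8 CPM in young and 836.4, 804.7 and 770.3 CPM in aged ECs. Its log2 fold change was 1.37 (SE 0.15), and with an edgeR adjusted p of 0.0861 it came closest to the threshold among the named genes. The 136-week sample was not the highest for Selp, in contrast to Tnfaip3 and most of the 10 genes.

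The targets with the largest log2 fold changes, beside Sele, were Ccl5, Csf3, Ptgs2, Il6 and Ccl2, which were all low in young ECs. Ccl5 had a log2 fold change of 5.15 (SE 1.30), with 0.135 to 0.372 CPM in young ECs and 4.40, 0.544 and 22.9 CPM at 127, 131 and 136 weeks. Ccl5 is made in quantity by T and NK cells. Its order over the aged samples was that of the T and NK cell markers, and also that of the myeloid and pan-leukocyte sums and of Tnfaip3, Bcl3, Icam1, Ptgs2 and Ccl2. The cell source of Ccl5 was not tested. Csf3 measured 0.221 to 1.67 CPM in young and 5.23, 6.73 and 32.5 CPM in aged ECs, a log2 fold change of 4.09 (SE 0.97). Ptgs2, which encodes COX-2, measured 0.347 to 2.46 CPM in young and 11.4, 8.17 and 46.0 CPM in aged ECs, a log2 fold change of 4.02 (SE 0.90). Il6 measured 1.04 to 7.00 CPM in young and 10.4, 26.4 and 58.8 CPM in aged ECs, a log2 fold change of 2.93 (SE 0.81). Ccl2 measured 7.89 to 15.7 CPM in young and 42.9, 25.9 and 155.2 CPM in aged ECs, a log2 fold change of 2.75 (SE 0.67). Without the 136-week sample the log2 fold changes were 3.26 for Ccl5, 2.78 for Csf3, 2.85 for Ptgs2, 2.14 for Il6 and 1.63 for Ccl2. With the pan-leukocyte term they were 1.85, 2.86, 2.67, 2.38 and 1.36 in the same order. Each of these 5 was above all young samples in all 3 aged samples, with edgeR adjusted p values between 0.235 and 0.256 and DESeq2 adjusted p values between 3.7e-05 and 0.00287.

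**Figure D4:**
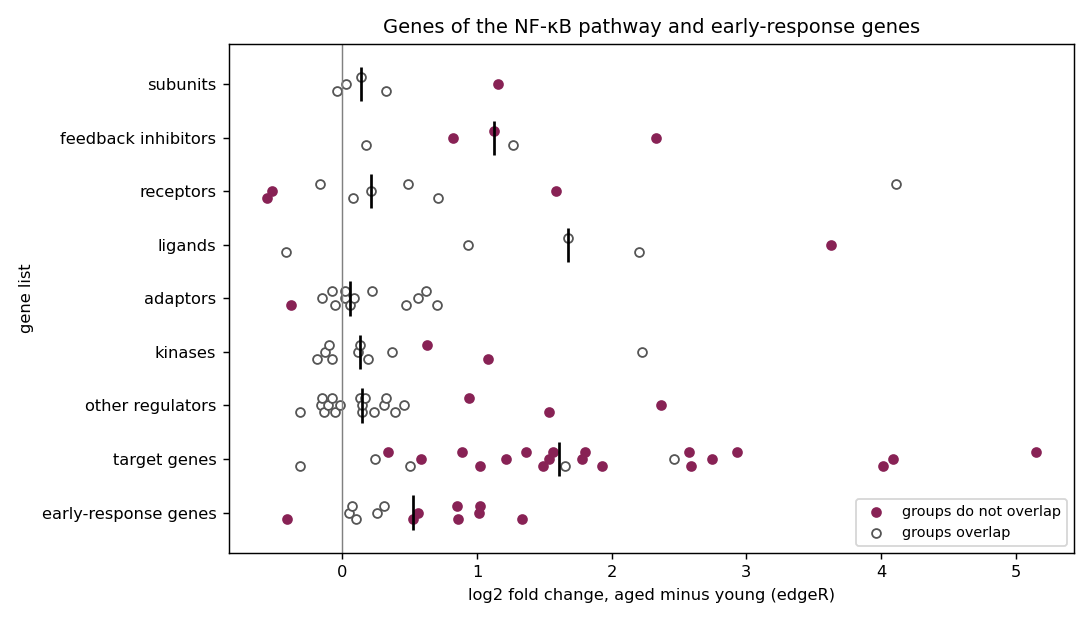
Fitted log2 fold change, aged minus young, of each tested gene in 9 lists; filled points are genes whose aged and young CPM do not overlap, open points genes whose ages overlap, and vertical bars list medians. The medians are 1.61 for target genes and 1.13 for feedback inhibitors, 1.67 for the 5 tested ligands, 0.53 for early-response genes, 0.21 for receptors, 0.15 for other regulators, 0.14 for subunits, 0.13 for kinases and 0.05 for adaptors.

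Early-response genes can be induced within minutes by tissue dissociation, as can some of the 10 genes, and were listed for that reason. Of 13 early-response genes, 7 were higher and 1 lower in every aged sample, beside 9.62% and 8.33% of all genes, with a median log2 fold change of 0.53 beside 0.0098 over all genes. Their summed FPKM was 10600 to 12280 in young ECs and 12180, 12550 and 16270 at 127, 131 and 136 weeks. Atf3, Nr4a1 and Socs3 had log2 fold changes of 1.33, 1.02 and 1.02, while Fos and Jun overlapped between ages at 0.07 and 0.26. The heat shock genes Hspa1a and Hspa1b overlapped too, at 0.05 and 0.10, but differed widely between aged samples. Hspa1a measured 859.9 to 1196 CPM in young ECs and 315.6, 1843 and 1178 CPM at 127, 131 and 136 weeks. Hspa1b measured 1008 to 1105 CPM in young ECs and 343.8, 1912 and 1181 CPM in those aged samples. Dusp1 measured 5181 to 5247 CPM in young and 3692 to 4028 CPM in aged ECs, a log2 fold change of -0.41. The part of dissociation in the differences above was not tested.

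Over all 10223 tested genes with a mean of at least 5 CPM, those whose pattern over the 6 samples lay nearest to Tnfaip3, Bcl3 and Rel were sought by the root mean square difference of centred log2(CPM + 1) values. Nearest to Tnfaip3 were Hey1, Arid5a and Gem, at 0.220, 0.273 and 0.276. Hey1, a Notch target, had 10.6 to 14.9 CPM in young and 31.9 to 88.0 CPM in aged samples. Nearest to Bcl3 were Slc6a9, A4galt and Sphk1, at 0.102, 0.138 and 0.151. Nearest to Rel were Irgm1, Kdm6b and Cobll1, at 0.073, 0.106 and 0.109. Irgm1, an interferon-inducible GTPase, had 311.3 to 445.3 CPM in young and 547.5 to 1110 CPM in aged samples. Among the 10 genes themselves, Nfkbiz ranked 12th and Nfkbia 25th in likeness to Rel, at 0.172 and 0.209. With 6 samples that differ in age and cell content, such likeness is a description of these libraries.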

How the data were processed

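Total RNA of sorted cells was made into TruSeq v2 libraries and read as 75-base single-end reads. According to the submitters' processing notes, CASAVA 1.8.2, TopHat2 2.1.0 and Cuffnorm 2.2.1 were used with the mm9 build. The authors deposited raw read counts per gene symbol and Cuffnorm FPKM values. The counting program, annotation and strand setting are not given in the sources used here. The authors' FPKM values served for levels between genes and counts for all tests.

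Genes with at least 0.5 CPM in at least 1 sample were kept. Aged and young samples were compared with edgeR 4.0.16 (R 4.3.3; quasi-likelihood F test, legacy dispersion, TMM scaling, age as the only term), with Benjamini-Hochberg adjustment over 14612 genes. SE was taken as the fold change over the square root of F. DESeq2 1.42.0 and limma 3.58.1 were alternatives. "Not overlapping" means that all aged CPM lay on 1 side of all young CPM. No replicates matched within sampling noise (chi-square over its degrees of freedom was at least 20.2 for each same-age pair).

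Named genes were the 10 genes; of each pathway list up to 6 genes with ages that do not overlap and a log2 fold change beyond 1; Icam1, Vcam1, Sele and Selp; the 3 genes nearest in pattern to each of the 3 members with the largest fold change; and selected markers. These members and lists were chosen with earlier results of these data known. Gene positions are from GENCODE M1 on mm9, and promoter sequences from RefSeq (GRCm38.p6 table), placed on mm9 by exact match.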

Additional observations from a re-analysis of the deposited data

How the results depend on the processing

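The comparison was repeated under 20 other settings, and under 1 chosen after seeing the data (the 131-week sample alone against the young). Tnfaip3, Nfkbiz, Rel, Bcl3, Nfkbia and Rela kept a positive log2 fold change in all 21, with ranges of 1.55 to 2.60, 0.84 to 1.29, 0.72 to 1.36, 0.44 to 1.60, 0.52 to 1.01 and 0.07 to 0.44. The number of the 10 genes called was 0 under each setting except DESeq2, which called 4. Over all genes, where edgeR called 0 (1847 at an unadjusted p under 0.05), DESeq2 called 630, limma-voom with quality weights 15, edgeR without a filter on low counts 4, limma on log2(FPKM + 0.1) 2, a term for the Lars2 and Rn45s share 2 and a pan-leukocyte term 13. Leaving out single samples gave 0 to 1, the 1 without the 131-week sample. The cause of these differences was not tested. The count of 4 genes with ages that do not overlap was 4 to 6 with samples left out, where fewer values make separation easier. It was not computed for fits that leave the values unchanged.

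The 4 genes near 0 turned sign. Nfkb2 was -0.069 with limma-voom, -0.20 with the pan-leukocyte term and -0.46 for the 131-week sample alone. Relb was -0.0069, -0.042 and -0.15, and Nfkbie -0.073, -0.0051 and -0.18, in the same order. Nfkb1 was 0.021 with library size only. With single samples left out Nfkb1 ran from -0.088 to 0.0042, Nfkb2 from -0.12 to 0.22, Relb from -0.0020 to 0.33 and Nfkbie from -0.14 to 0.41.

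The median log2 fold change of the target list was 1.04 with the pan-leukocyte term and 1.02 for the 131-week sample alone. That of the ligands, over 5 genes, was 0.80 and 0.43 on log2 of FPKM plus 0.1 and plus 1, 0.89 with the pan-leukocyte term and 1.01 to 2.16 with single samples left out. That of the kinases ran from -0.13 without the 127-week sample to 0.47 without young 3. No paired analysis was possible, because young and aged samples came from different mice and the labels give no pairs. The smallest count of any of the 10 genes in any sample was 219, for Rel in young 2.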
